A study of Mus musculus with 3 samples.

Results

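The 11 genomic windows around pluripotency genes of mouse embryonic stem cells held 1784 of the 348759 intervals in a list of potential open chromatin peaks. The windows were set by position in the mouse build mm9, and the rule uses no measured value, although the loci were picked with earlier results of these data known. They were named for Pou5f1, Sox2, Nanog with Dppa3, Klf4, Klf2, Esrrb, Tbx3, Tfcp2l1, Prdm14, Sall4 and the Mir290 microRNA cluster. Each was 200 to 360 kb wide, and together they spanned 2.72 Mb. An interval belonged to a window if its midpoint lay inside it. Gene positions in mm9 were not at hand, so the names of the windows were not checked against gene positions, and an interval is described by its position within a window and not as a promoter, intron or enhancer.

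The list belongs to a FAIRE-seq series. FAIRE isolates DNA that crosslinks poorly to protein and is enriched for nucleosome-depleted sequence. The series comprised 1 FAIRE sample of wild type cells given 500 nM ICRF-193 for 16 h, 1 FAIRE sample of wild type cells given the solvent DMSO for 16 h, and 1 input library of wild type stem cells. ICRF-193 blocks the catalytic cycle of topoisomerase II, which untangles DNA by passing duplexes through each other. The 3 samples share the strain background 129Sv-C57Bl/6 and feeder-free culture, and the labels name no allele. The titles of both FAIRE samples place replicates 1 and 2 in a single sample, and the list names no sample for any interval, so which of the 3 libraries, input included, contributed to it is unknown. ICRF-193 and DMSO therefore could not be set against each other, nothing reported here measures the inhibitor, and there was no replicate error to test against. Read depth is unknown. No RNA was measured in these files, so the stem cell identity of the culture rests on its label.

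Pluripotent stem cells keep their identity through a circuit of transcription factors that bind one another's genes. OCT4 (encoded by Pou5f1) and SOX2 bind DNA as partners at a composite element, NANOG joins them at many of the same enhancers, and a second group that includes KLF4, KLF2, ESRRB, TBX3, TFCP2L1 and PRDM14 stabilises the naive state of mouse cells. Several of these genes are known in mouse stem cells for large clusters of enhancers. The Mir290 cluster encodes an abundant microRNA family of these cells, which promotes the rapid passage from G1 to S phase.

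The promoter sequences of Nanog and Pou5f1 are printed for the motif letters they hold. Both are given 5′ to 3′ as RefSeq places them in GRCm38.p6, from 250 bases before to 50 after a transcript start. Of the 11 protein-coding genes, 7 had an entry, with 10 entries in all. The Nanog entry is shown for its OCT4-SOX2 composite element, in capitals. A Pou5f1 entry is shown for a KLF-type motif and a GC box, in capitals, and the other Pou5f1 entry held neither.
Nanog, chromosome 6, plus strand: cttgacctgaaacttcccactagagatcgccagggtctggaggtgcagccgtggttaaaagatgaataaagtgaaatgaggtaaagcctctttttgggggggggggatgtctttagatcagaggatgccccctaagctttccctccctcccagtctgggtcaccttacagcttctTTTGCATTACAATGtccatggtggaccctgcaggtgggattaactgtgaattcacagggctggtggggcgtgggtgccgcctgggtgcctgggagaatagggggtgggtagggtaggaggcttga
Pou5f1, chromosome 17, plus strand: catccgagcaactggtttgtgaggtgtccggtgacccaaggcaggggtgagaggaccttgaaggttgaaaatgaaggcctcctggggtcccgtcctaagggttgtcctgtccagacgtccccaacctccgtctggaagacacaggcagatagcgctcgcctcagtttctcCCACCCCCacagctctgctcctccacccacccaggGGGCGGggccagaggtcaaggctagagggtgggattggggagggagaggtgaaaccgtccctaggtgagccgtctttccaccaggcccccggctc

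The OCT4-SOX2 motif searched was CATTGT and, after a spacer of 1 base, ATGCAAA, on both strands. No variant of these letters was allowed, so other forms of the element were not counted. The exact motif was found in 2 of all 32851 promoter entries of the table, both of Nanog. These entries share 224 of their 300 bases, so they hold 1 and the same site. In the entry shown it lay on the opposite strand, from 75 to 62 bases before the start. The KLF-type motif GGGNGTGG, again on both strands, was in 4 of the 10 entries (Pou5f1, Tfcp2l1 and the overlapping pair of Nanog, which hold the same sites), against 17.6% of all entries. The GC box GGGCGG was in 4 of 10 (Pou5f1, Sox2, Klf4 and Klf2), against 35.7% of all entries. The octamer ATGCAAAT and the ESRRB-type motif TCAAGGTCA were in 0 of 10, against 1.74% and 0.423% of all entries. The GC box and the KLF-type motif can overlap. These matches describe letters in GRCm38.p6, and no interval was placed on them.

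The mature microRNAs of the Mir290 cluster are shown for the seed that several of them share. RefSeq listed 17 mature microRNAs of 9 genes on chromosome 7. For the gene Mir292 only mmu-miR-292a-5p was listed, so its 3p arm is missing from these counts. Of the 17 listed, 5 had a seed (bases 2 to 8, in capitals) that began with AAGUGC, and 3 of the 5 shared AAGUGCU.
mmu-miR-291a-3p: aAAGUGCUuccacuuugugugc
mmu-miR-294-3p: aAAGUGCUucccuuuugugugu
mmu-miR-295-3p: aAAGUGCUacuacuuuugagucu
mmu-miR-290a-3p: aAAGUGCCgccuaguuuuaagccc
mmu-miR-291b-3p: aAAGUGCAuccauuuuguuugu

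The gene windows held many more potential peaks per Mb than their surroundings, although most of their bases lay in no interval. They had 656 intervals per Mb, against 292 per Mb in their flanks and 143 per Mb over the 19 autosomes. Flanks were the windows of the same width on either side, 2 on the left and 2 on the right of each. The density of the gene windows was 2.25 times that of the flanks and 4.59 times that of the autosomes. Intervals covered 8.24% of the window bases, against 3.44% of the flanks and 1.64% of the autosomal span. The windows made up 0.113% of that span and held 0.517% of its intervals. Of the 11 windows, 10 had at least 2 times the autosomal density, whereas 15.8% of all autosomal windows of 200 kb did. Relative to their own flanks, 10 windows were denser, and 5 had at least 2 times the density. How often other autosomal windows exceed their own flanks was not computed, so these counts have no background share beside them.

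The excess was seen in the number of intervals, while the scores of single intervals were close to those of the list. Neighbouring intervals often lay close together. From 29.8% (Klf4) to 44.7% (Klf2) of the gaps within a window were no longer than 20 bp. A number of intervals is therefore not a number of separate open sites. The score is the authors' own value for each interval, on a scale that the sources used here do not state. The median score was 0.0136 in the gene windows, 0.0136 in the flanks and 0.0137 in the whole list. High-score intervals, meaning the top 10% of the list by score (0.0237 or more), numbered 157 of 1784 in the gene windows, or 8.80% (95% Clopper-Pearson interval 7.53 to 10.2%), against 9.86% in the flanks and 10.0% in the list. The interval covers counting error only and treats neighbouring intervals as independent. Widths were also close, with 20.9% of intervals at least 200 bp wide in the gene windows against 20.1% in the list, and 32.0% no wider than 10 bp against 30.8%. A share of high-score intervals near that of the list is not a result about these genes. What differed was how many there were, at 57.7 high-score intervals per Mb in the gene windows, 28.8 per Mb in the flanks and 14.2 per Mb on the autosomes. Windows around other genes were not measured, so the excess is not shown to be particular to these loci.

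**Figure D1:**
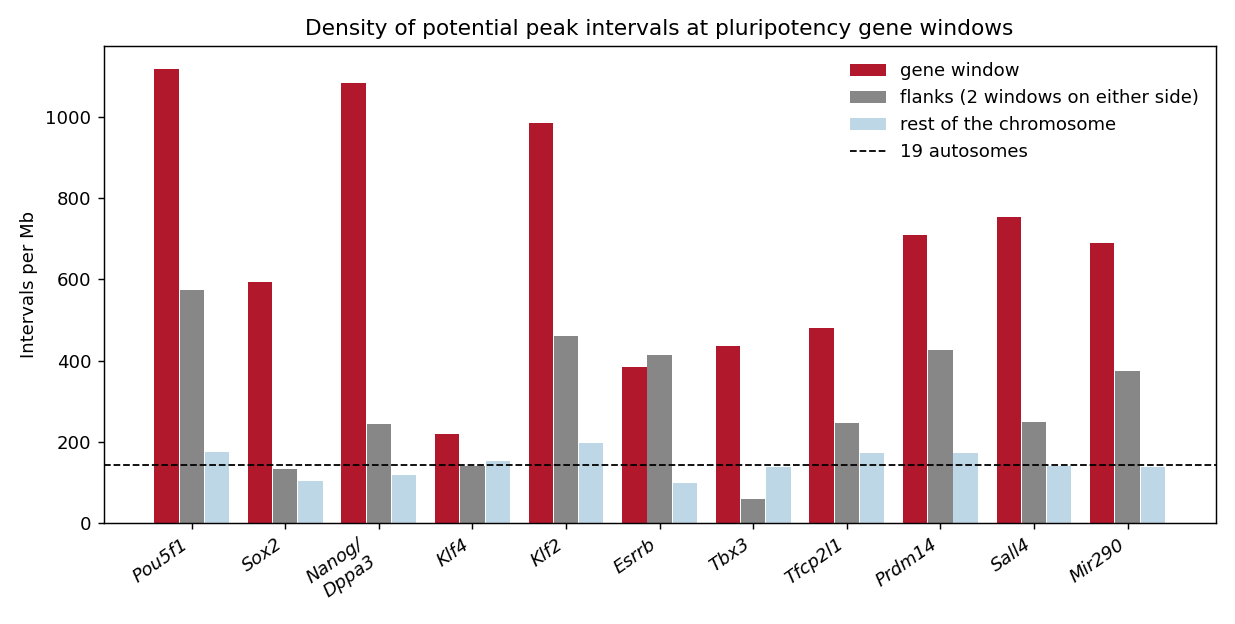
Intervals per Mb (vertical axis) in each gene window (red), its flanks (dark grey) and the rest of its chromosome (light blue), with the density of the 19 autosomes as a dashed line; there are no replicates and hence no error bars. The Pou5f1, Nanog with Dppa3 and Klf2 windows stand highest, and the Esrrb window is the one that does not exceed its flanks.

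**Figure D2:**
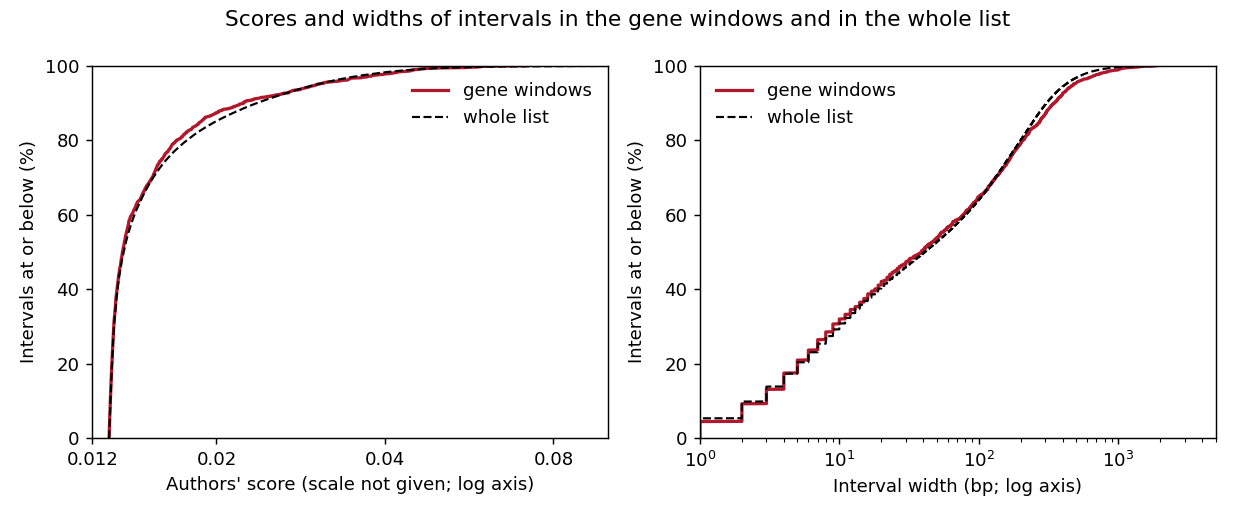
Cumulative share of intervals (vertical axis, %) by score (left, log axis) and by width (right, log axis) for the gene windows (red) and the whole list (dashed). The curves lie close together for both measures, with median scores of 0.0136 and 0.0137.

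Among the core factors, the Pou5f1 window on chromosome 17 (35550001 to 35750000) was the densest of the 11. Pou5f1 encodes the POU-domain factor OCT4. The window held 224 intervals, or 1120 per Mb, against 574 per Mb in its flanks and 174 per Mb on the rest of chromosome 17. As many intervals were found in 0.398% of autosomal windows of that width. High-score intervals numbered 26 and 25 of these fell into 5 chains, a chain being 3 or more high-score intervals with gaps of at most 10 kb. The longest chain ran from 35556763 to 35584169 (27.4 kb), near the left edge, and contained 7 high-score intervals among 67 in all, which covered 46.9% of it. Its strongest interval, at 35575252 to 35576244, had a score of 0.0686, rank 667 in the whole list. Another chain near the middle of the window, from 35639444 to 35654228, had 7 high-score intervals and a highest score of 0.0421. The stronger signal in this window was thus toward one edge and not at its centre. In GRCm38.p6 the gene order places the class I histocompatibility genes H2-Q7 and H2-Q10 on one side of Pou5f1 and Tcf19 and Cchcr1 on the other, with 8 protein-coding genes within 100 kb, the most of any of the 12 genes. The H2-Q genes are close copies of one another, the sources used here do not state how reads matching several copies were treated, and their part in the counts was not tested.

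The Sox2 window on chromosome 3 (34400001 to 34750000) was much denser than its flanks, which were themselves denser than the rest of its chromosome. Sox2 encodes the HMG-box partner of OCT4. The window held 208 intervals, or 594 per Mb, against 133 per Mb in its flanks, a ratio of 4.47, and 104 per Mb on the rest of chromosome 3. No protein-coding gene other than Sox2 lies within 100 kb of it in GRCm38.p6. Of its 18 high-score intervals, 17 formed 2 groups separated by a stretch of low scores. The left group was a chain from 34538140 to 34567951 (29.8 kb) with 8 high-score intervals and the widest interval of the window, 1113 bp at 34566839 to 34567951. The right group held the chains from 34627224 to 34644652, with 3 high-score intervals, and from 34655185 to 34671265, with 6. The chain of 6 contained the strongest interval of the window, at 34656561 to 34657481 (score 0.0586, rank 1154), and the second strongest, at 34659969 to 34660704 (0.0478). Sox2 is known in mouse stem cells for a distal enhancer cluster far downstream of the gene. Whether the right group coincides with it was not tested, since gene positions in mm9 were not used.

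The Nanog and Dppa3 window on chromosome 6 (122500001 to 122750000) was the most enriched relative to its own chromosome. Nanog encodes a homeodomain factor of the core circuit, and Dppa3, also called Stella, encodes a maternal factor that protects methylated DNA in the early embryo. The window held 271 intervals, or 1084 per Mb, against 244 per Mb in its flanks (4.44 times) and 118 per Mb on the rest of the chromosome (9.20 times). As many were found in 0.394% of autosomal windows of that width. Its 31 high-score intervals all belonged to chains, of which there were 6. The longest, from 122545694 to 122583791 (38.1 kb), held the strongest interval of all 1784 members, at 122558379 to 122560173. That interval was 1795 bp wide and scored 0.0710, or 5.52 times the lowest autosomal score, with rank 606 in the list. A second chain ran from 122640152 to 122670403 (30.3 kb) with 6 high-score intervals, and another from 122710985 to 122736658 (25.7 kb) with 8. Joining intervals within 500 bp gave a region of 7387 bp at 122710711 to 122718097, built from 22 intervals. Gene order in GRCm38.p6 runs Gdf3, Dppa3, Nanog, Slc2a3, where Gdf3 encodes a growth factor of the TGF-beta family and Slc2a3 a glucose transporter.

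The 2 Krüppel-like factor windows differed widely from each other. These zinc finger factors bind CACCC and GC-rich elements and can substitute for each other in part in mouse stem cells. The Klf2 window on chromosome 8 (74740001 to 74950000) held 207 intervals, or 986 per Mb, and the Klf4 window on chromosome 4 (55430001 to 55650000) held 48, or 218 per Mb. For Klf2 the density was 2.15 times that of its flanks and 5.03 times that of the rest of chromosome 8. For Klf4 the ratios were 1.56 and 1.42, and 22.2% of autosomal windows of that width had as many intervals, although the 48 intervals were above the median of 15 for such windows. Its high-score intervals were no denser than elsewhere, at 13.6 per Mb against 15.9 per Mb in its flanks and 14.2 per Mb on the autosomes. In the Klf2 window 10 of 207 intervals were in the top 10% by score, or 4.83% (interval 2.34 to 8.70%), the lowest share of the 11 windows. The interval includes the 8.55% found in the flanks of this window but not the 10.0% of the list. Per Mb, the Klf2 window still held 47.6 high-score intervals, against 39.3 in its flanks and 14.2 on the autosomes. Its strongest interval, 1743 bp wide at 74839311 to 74841053, scored 0.0592 (rank 1112) and lay 4.82 kb left of the window centre. The single Klf2 chain sat at the right edge and ran past it, with 2 of its 3 high-score intervals inside the window. The Klf4 window had 3 high-score intervals, none of them in a chain, of which the strongest was at 55476787 to 55477615 (score 0.0409, rank 5625). Its surroundings were lopsided, with 118 intervals in the 440 kb to the left and 5 in the 440 kb to the right. The left flank alone was denser than the Klf4 window, so the ratio of 1.56 rests on the sparse right side. Within 100 kb, Klf2 has 3 other protein-coding genes and Klf4 has 0 in GRCm38.p6.

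Among the further naive-state factors, the Tbx3 window stood out most sharply from its surroundings. Tbx3 encodes a T-box factor that supports self-renewal, and the window on chromosome 5 (120020001 to 120240000) held 96 intervals, or 436 per Mb. That was 7.53 times the 58.0 per Mb of its flanks, which were themselves below the 139 per Mb of the rest of chromosome 5. The window contained 8 high-score intervals, whereas its flanks contained 1 in 880 kb. The strongest, 1055 bp wide at 120159615 to 120160669 (score 0.0445, rank 3904), belonged to a chain of 4 high-score intervals in 6.82 kb. The next strongest, at 120129729 to 120130393 (score 0.0380), lay within 1 kb of the window centre. Tbx3 is flanked by Med13l and Tbx5 in GRCm38.p6, with 0 protein-coding genes within 100 kb.

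The Esrrb window showed the opposite arrangement. Esrrb encodes an orphan nuclear receptor that is a target and a partner of the core circuit. The window on chromosome 12 (87600001 to 87960000) held 138 intervals, or 383 per Mb, which was 3.87 times the rest of chromosome 12 but 0.929 times its flanks at 412 per Mb. The flanks differed, with 145 intervals in the 720 kb to the left and 449 in the 720 kb to the right. High-score intervals were also sparser in the window, at 27.8 per Mb against 40.3 per Mb in the flanks. The strongest, 338 bp wide at 87774238 to 87774575 (score 0.0426, rank 4687), lay 5.59 kb left of the window centre. A chain of 4 high-score intervals ran from 87807050 to 87820211 (13.2 kb), and another of 3 from 87839549 to 87845658.

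The remaining naive-state windows both lie on chromosome 1. Tfcp2l1 encodes a CP2-family factor downstream of LIF and STAT3 signalling, and Prdm14 a PR-domain zinc finger protein that restrains DNA methylation and differentiation signals. The Tfcp2l1 window (120420001 to 120680000) held 125 intervals, or 481 per Mb, against 247 per Mb in its flanks. The Prdm14 window (13000001 to 13210000) held 149, or 710 per Mb, against 426 per Mb in its flanks. The highest and second highest scores of these windows were both in that of Tfcp2l1. They were 0.0471 at 120544235 to 120545173, which was 5.30 kb left of the centre, and 0.0461 at 120656143 to 120656566. High-score intervals were denser in the Prdm14 window, at 47.6 per Mb against 30.8 per Mb in that of Tfcp2l1. In the Prdm14 window the highest score was 0.0372, the lowest maximum of the 11 windows, at 13064596 to 13065147. Prdm14 nevertheless had a chain of 29.8 kb, from 13064596 to 13094423, in which 6 high-score intervals stood among 50. The neighbours in GRCm38.p6 are Clasp1 and Gli2 for Tfcp2l1 and Slco5a1 and Ncoa2 for Prdm14.

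The Sall4 window on chromosome 2 (168470001 to 168690000) held 166 intervals, or 755 per Mb, against 248 per Mb in its flanks. Sall4 encodes a spalt-family zinc finger factor that interacts with OCT4 and NANOG. A single chain from 168586530 to 168605907 (19.4 kb) held 8 of its 13 high-score intervals. The strongest, at 168592552 to 168593359, scored 0.0582 (rank 1184), and the next in the window scored 0.0398. The chain lay right of the centre of the window, and intervals covered 39.8% of it. A joined region of 4752 bp at 168586363 to 168591114 contained 16 intervals.

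The Mir290 window on chromosome 7 (3100001 to 3320000) had the largest share of strong intervals. It held 152 intervals, or 691 per Mb, of which 20, or 13.2% (interval 8.23 to 19.6%), were in the top 10% by score. The interval includes the 10.0% of the list and the 12.2% found in the flanks of this window. As many high-score intervals were found in 1.13% of autosomal windows of that width. A chain of 38.1 kb, from 3184304 to 3222357, contained 12 high-score intervals among 73. The 3 strongest members of the window lay within 4 kb of its centre. They were at 3206240 to 3207268 (score 0.0643, rank 818), 3211576 to 3212574 (0.0560) and 3213428 to 3214025 (0.0511). The widest interval of all 11 windows, 1901 bp at 3209348 to 3211248, lay between the first and second of these. The left flank was cut to 85.8 kb by the first interval of the chromosome and held 2 intervals, while the right flank of 440 kb held 195. The ratio to the flanks, 1.84, therefore rests almost wholly on the right side.

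**Figure D3:**
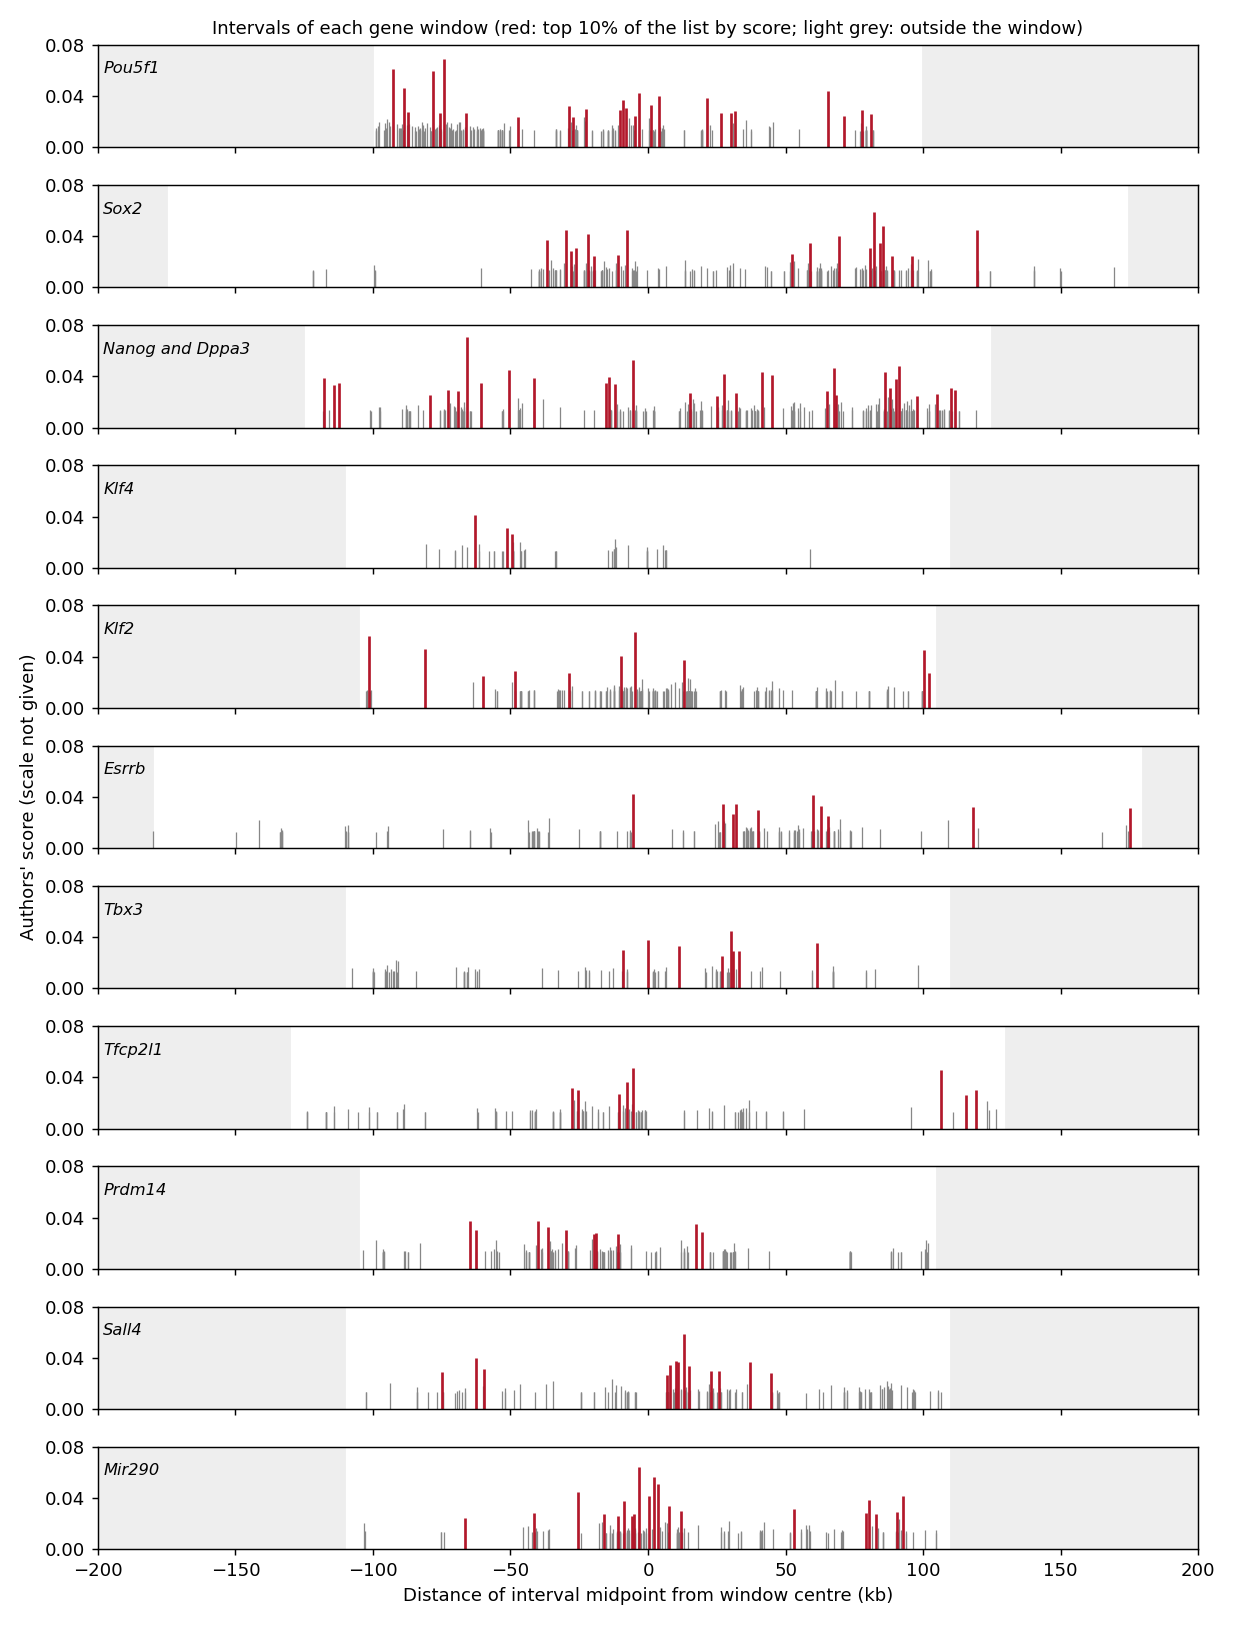
Each line is an interval of a gene window, placed by the distance of its midpoint from the window centre (horizontal axis, kb) with its height giving the authors' score (vertical axis, scale not given). Red lines are in the top 10% of the list by score, and light grey areas are outside the window. High-score intervals group in the middle of the Mir290 window and in 2 groups in the Sox2 window, and the Klf4 window holds 3. The highest scores of the Pou5f1 window lie toward its left edge.

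High-score intervals were grouped in most windows. Of the 157, 123 belonged to chains of 3 or more, or 78.3% (interval 71.1 to 84.5%), against 46.2% in the flanks and 33.1% on the autosomes. A denser set forms more chains by construction, and this was not separated from grouping. The 24 chains touched 10 of the 11 windows, all but that of Klf4, and had a median span of 14.3 kb, against 11.8 kb for the 2505 chains of the autosomes. The longest, of 38.1 kb, was not unusual for the list, in which 79 autosomal chains were at least as long and the longest spanned 202 kb. Joining within 500 bp left 626 regions with 2.85 intervals each and a median width of 223 bp, against 2.43 intervals and 179 bp in the flanks and 2.17 intervals and 166 bp in the list. The number joined also increases with density by construction.

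Density was highest near the centres of the windows. Pooled over the 11 loci, there were 1058 intervals per Mb within 25 kb of the centre, 775 per Mb at 25 to 50 kb, 598 per Mb at 50 to 75 kb and 593 per Mb at 75 to 100 kb. Beyond that the density was 306 per Mb at 100 to 150 kb, 275 per Mb at 200 to 300 kb and 352 per Mb at 300 to 400 kb, still above the 143 per Mb of the autosomes. High-score intervals showed the same order, with 94.5 per Mb within 25 kb and 33.6 per Mb at 100 to 150 kb. The central 50% of the window's length held 64.7% of all members, and over 50% of the intervals in 9 of the 11 windows, up to 81.9% for Esrrb and 78.8% for Sox2. The exceptions were the Pou5f1 window, with 40.6%, and the window of Nanog with Dppa3, with 49.4%.

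**Figure D4:**
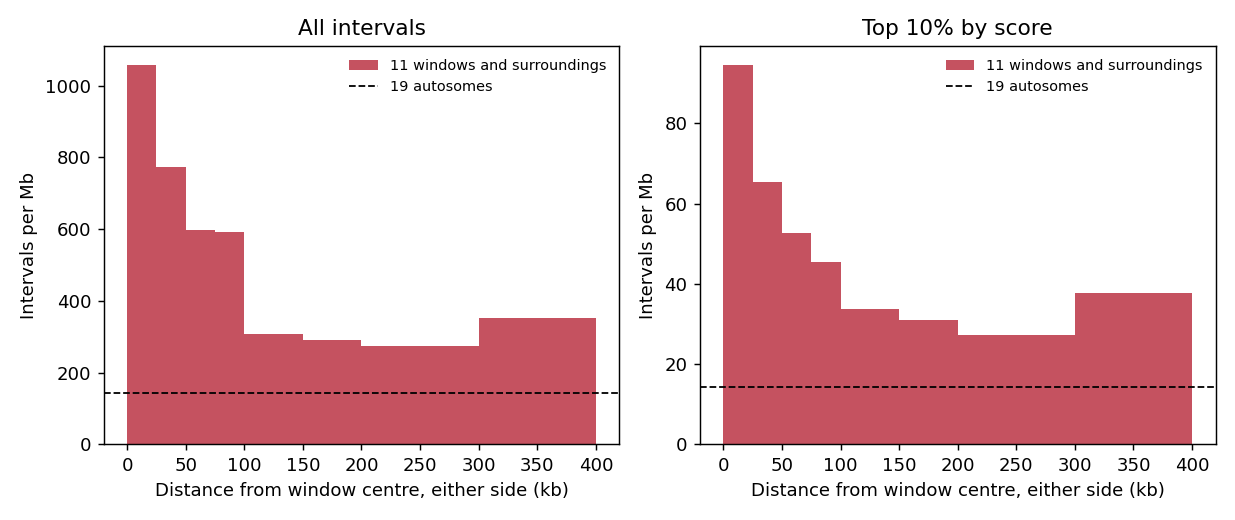
Intervals per Mb (vertical axis) by distance from the window centre on either side (horizontal axis, kb), pooled over the 11 loci, for all intervals (left) and the top 10% by score (right); dashed lines give the density of the 19 autosomes. Both panels are highest within 25 kb, at 1058 and 94.5 per Mb, and stay above the autosomes out to 400 kb.

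The upper end of the scores was close to that of the list, with a 99th percentile of 0.0459 in the gene windows and 0.0456 in the list. Of the 1784 intervals, 4, or 0.224%, were among the 1000 highest scores, which make up 0.287% of the list. Of these 4, 2 were in the Pou5f1 window and 1 each in the Nanog with Dppa3 and Mir290 windows. Of the 10 highest-scoring members, 3 were in the Pou5f1 window, 2 each in those of Klf2 and Mir290, and 1 each in those of Nanog with Dppa3, Sox2 and Sall4.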

How the data were processed

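FAIRE-seq libraries of mouse embryonic stem cells gave 1 deposited list of potential peaks. Bowtie, without a version, and the build mm9 are named in the submitters' processing notes, and F-Seq in the name of the list. The sources used here do not state the F-Seq settings, the read filters or the samples pooled. Each interval carries a score deposited by the authors, with no stated scale. Nor do they state how reads matching several places were handled, which bears on duplicated sequence.

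Windows, members and lists were chosen with earlier results of these data known. All 11 loci were named, with the highest-scoring and widest interval of each, the 10 highest-scoring members and the longest chains. Starts count from 0 in the list and are printed counted from 1. Chromosome span ran from first to last interval. The software was scipy 1.17.1, numpy 2.4.6 and pandas 2.3.3 under Python 3.11.15, with matplotlib 3.10.9 for plots. The density ratio to the flanks and the share of high-score intervals were tested on simulated intervals placed at random, without grouping. The other procedures were not tested in this way. Shares have exact 95% binomial intervals. With 1 sample a group and no sample named, no test was run. RefSeq tables of GRCm38.p6 gave sequences and gene order only. Alternatives were score and width filters, joining, shifted windows, leaving out each window and other chaining rules.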

Additional observations from a re-analysis of the deposited data

How the results depend on the processing

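No paired analysis was possible because the list names no sample. Of 139 alternative values for the pooled results, 112 remained inside their counting interval or, for counts and covered bases, within 1.5 times the value given. No pooled result changed direction. Part of the 112 could hardly move. Leaving out the top 0.1% by score removed no member, and membership by any overlap added none. The median score filter could not change the density ratio of high-score intervals to the flanks. Members numbered 868 among intervals not below the list's median score, 157 in the top 10% by score, 626 after joining within 500 bp and 373 at a width of at least 200 bp. The density relative to the autosomes was 4.07 in the top 10%, 3.50 after joining, 3.85 with windows widened by 50 kb and 5.45 with windows narrowed by 50 kb, and relative to the flanks 2.00 in the top 10%, 1.91 after joining and 2.07 in widened windows. Covered bases were 3.33% in the top 10%. The share in the top 10% by score was 18.1% among intervals not below the median, 22.0% after joining and 42.1% at 200 bp or more, and the median score was 0.0161, 0.0320 (top 10%), 0.0159 (joined) and 0.0219 (200 bp or more), all raised by construction. Chains numbered 10 with the top 5% by score, against 24. Leaving out each window in turn gave 1513 to 1736 members, 4.29 to 4.88 times the autosomes, 2.06 to 2.56 times the flanks (1.73 to 2.31 for the top 10% by score), 7.38 to 8.93% covered, 8.33 to 9.32% in the top 10% and median scores of 0.0136. For Klf4 the ratio to the rest of its chromosome was 0.95 with intervals of at least 200 bp, against 1.42, and the cause was not tested. At least 2 times the rest of the chromosome was found in 10 of 11 windows under each filter run for this count. With all autosomes as the reference it was also 10. The filter to the top 10% by score was not run for it. Since depth is unknown, an absent interval is not evidence of closed chromatin.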
